A study of Mus musculus with 2 samples.

Results

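The 8 genes Pdcd1, Ctla4, Havcr2, Lag3, Tigit, Cd160, Cd244a and Entpd1, which encode receptors and an ectoenzyme that restrain T and NK cells, were followed across the lymphocytes of mouse tumours. All 8 were found by their symbols among the 32285 features of both count tables. The cells came from subcutaneous tumours of CT26, a mouse colorectal carcinoma line, grown in BALB/c mice that entered the study at 5 weeks of age. According to the design text, 1 arm was fed normally and the other an isocaloric arginine-deficient diet, starting 1 week before inoculation, and tumours were collected on day 20. From each diet came 1 droplet library (10x 3′ chemistry) of bead-sorted CD45+ cells, named Arg and Control. The label of Arg states no diet, so its place in the arginine-deficient arm rests on the design text. The sources do not say how many mice were pooled per library.

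With 1 library per diet there was no replicate of a diet, so no test was run. Intervals in this text are 95% intervals of counting error alone (Poisson for summed counts, Clopper-Pearson for shares of cells). They leave out differences between mice, tumours and preparations, and those of summed counts also leave out differences between cells. The libraries held 155927693 and 191505551 unique molecular identifiers (UMIs, counted RNA molecules), and 12991 Arg and 12800 Control cells were kept, with medians of 8294 and 10021 UMIs. A total of 44 cell barcodes occurred in both libraries.

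Inhibitory receptors are switched on when a T cell is activated, and they stay on when antigen persists, as in a tumour; several of them on one cell are a known mark of exhausted CD8 T cells. PD-1 (from Pdcd1) and CTLA-4 belong to the CD28 family. PD-1 recruits phosphatases to the T cell receptor, and CTLA-4 takes the ligands CD80 and CD86 away from CD28. TIM-3 (Havcr2), LAG-3 and TIGIT have ligands of their own, CD160 and 2B4 (Cd244a) are shared with NK cells, and CD39 (Entpd1) is an ectoenzyme that breaks down extracellular ATP on the way to adenosine. Regulatory T cells carry CTLA-4 constitutively, and myeloid cells are known to carry TIM-3 and CD39.

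Cell classes were named from marker genes, with the 8 receptors left out of the clustering. The CD8 T class held 972 Arg and 1509 Control cells, with Cd8a, a chain of the CD8 coreceptor, in 85.3% and 91.5% of them. The CD4 T class held 227 and 105 cells (Cd4 in 71.4% and 58.1%, and Foxp3, the master factor of regulatory T cells, in 1.76% and 2.86%). The regulatory T class held 283 and 164 cells (Foxp3 in 80.6% and 77.4%). The NK class held 1414 and 741 cells (Ncr1, the activating receptor NKp46, in 90.4% and 93.1%, and the T cell receptor subunit Cd3e in 4.03% and 4.18%). Median depth was 7559 and 8362 UMIs in CD8 T cells, 4892 and 4152 in CD4 T cells, 6499 and 5682 in regulatory T cells, and 6150 and 6691 in NK cells. Each name stands for cells that are like that type by these markers, and the regulatory T class also had Cd8a in 9.19% and 19.5% of its cells.

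The 8 receptors divided the 4 classes differently. Pdcd1, Havcr2, Lag3 and Entpd1 had their highest level in CD8 T cells in both libraries, Ctla4 and Tigit in regulatory T cells, and Cd244a in NK cells. Cd160 was shared by NK and CD8 T cells and was scarce in the other T cells. Levels are in CPM, the gene's summed UMIs divided by all UMIs of the class and scaled to the usual common total, and because capture differs between genes they are compared here between classes for one gene and not between genes.

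Pdcd1 was at 385 CPM (372 to 398) in Arg and 602 CPM (589.6 to 615) in Control CD8 T cells. It was at 110.0 and 164 CPM in CD4 T cells, and at 92.7 and 238 CPM in regulatory T cells. In NK cells it was at 11.02 and 12.8 CPM. The order of CD4 T and regulatory T cells thus differed between the libraries: their intervals overlapped in Arg (93.1 to 129 and 81.4 to 105 CPM) and were apart in Control (131 to 203 and 213 to 265 CPM).

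Ctla4 was at 1655 CPM in Arg and 1720.0 CPM in Control regulatory T cells, where 84.3% and 89.8% of cells held a UMI of it once every cell had been thinned at random to 2000 UMIs. It was at 520.5 and 883 CPM in CD4 T cells and at 485 and 511 CPM in CD8 T cells. These neighbours overlapped in Arg (483 to 560.2 and 470.3 to 499 CPM) and not in Control. NK cells had 150.3 and 136 CPM.

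Havcr2 was at 322 CPM in Arg and 173 CPM in Control CD8 T cells. Regulatory T cells came next, at 100.02 and 91.8 CPM. CD4 T cells (22.0 and 19.5 CPM) and NK cells (12.3 and 14.4 CPM) were lowest, with intervals apart in Arg (14.8 to 31.4 and 10.3 to 14.6 CPM) and overlapping in Control. Lag3 followed the same order, at 211 and 136 CPM in CD8 T cells, 125 and 94.7 CPM in regulatory T cells, 41.1 and 23.4 CPM in CD4 T cells, and 28.3 and 20.9 CPM in NK cells. Its intervals in CD4 T and NK cells overlapped in both libraries.

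Tigit was at 84.3 CPM in Arg and 84.4 CPM in Control regulatory T cells. The other classes lay close together, at 32.7 and 44.4 CPM in CD8 T cells, 26.4 and 31.2 CPM in CD4 T cells and 25.7 and 26.7 CPM in NK cells. The intervals of these 3 classes overlapped except between CD8 T and NK cells (29.1 to 36.7 and 22.8 to 28.9 CPM in Arg, 41.0 to 47.9 and 22.7 to 31.2 CPM in Control).

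Cd244a was at 162 CPM in Arg and 173 CPM in Control NK cells, against 34.97 and 60.8 CPM in CD8 T cells. It was scarce in CD4 T cells (4.40 and 11.7 CPM) and in regulatory T cells (9.20 and 15.4 CPM). Cd160 was at 58.7 and 47.4 CPM in NK cells and at 48.4 and 46.1 CPM in CD8 T cells. Those intervals were apart in Arg (54.2 to 63.4 and 43.9 to 53.2 CPM) and overlapped in Control. Regulatory T cells had 9.96 and 6.61 CPM of Cd160, and CD4 T cells held 3 and 2 UMIs of it in all.

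Entpd1 was at 187 CPM in Arg and 262 CPM in Control CD8 T cells. It was at 118 and 186 CPM in regulatory T cells. CD4 T cells (44.0 and 41.0 CPM) and NK cells (43.8 and 65.9 CPM) were lowest, and their intervals overlapped in both libraries.

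**Figure D1:**
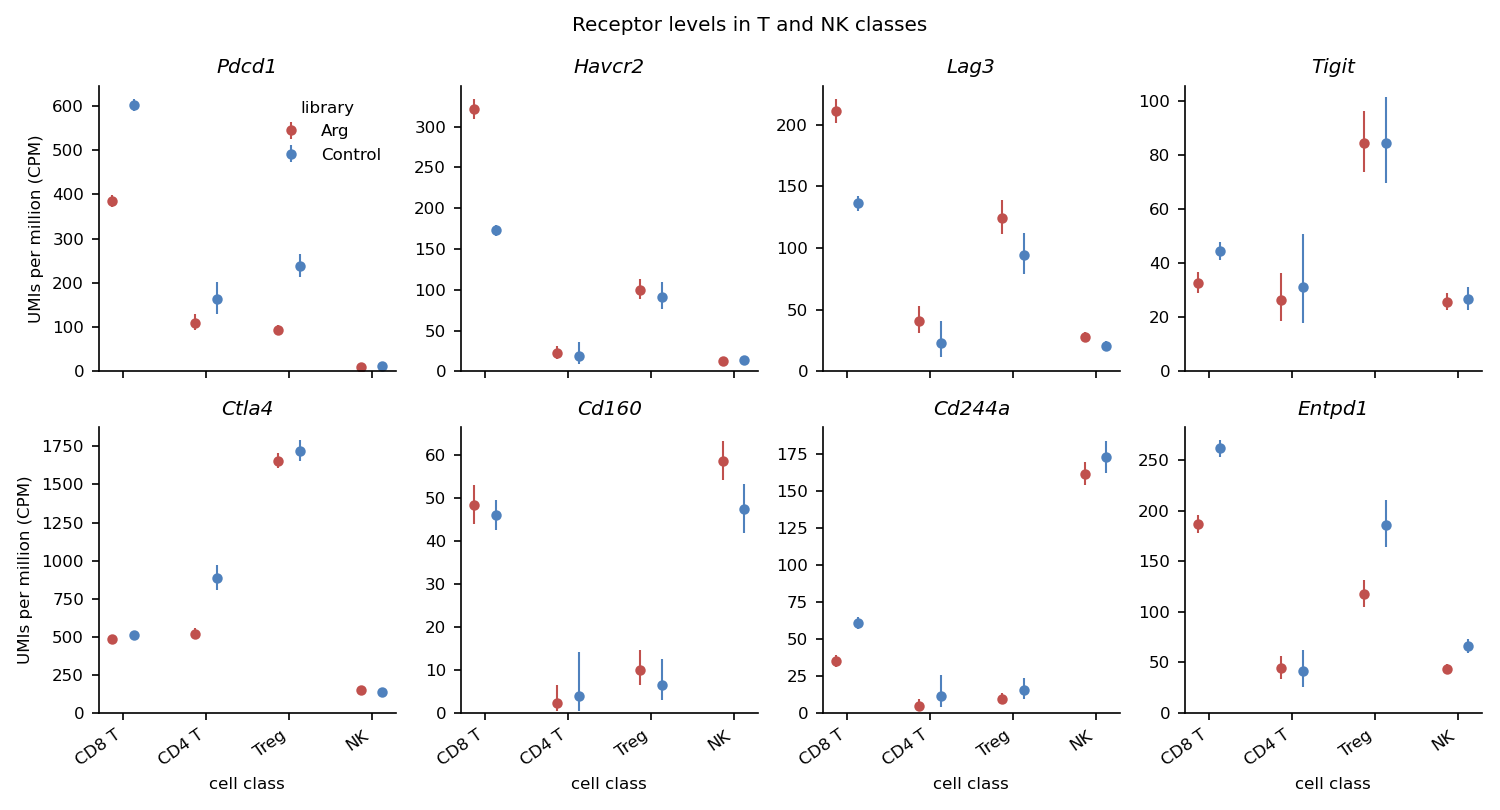
Level of each receptor (vertical axis, CPM, linear from 0, a scale of its own in each panel) in CD8 T, CD4 T, regulatory T (Treg) and NK cells of the Arg (red) and Control (blue) libraries. Points are summed counts of 1 library with exact Poisson 95% intervals; Pdcd1 in CD8 T cells is at 385 and 602 CPM, and Ctla4 in regulatory T cells at 1655 and 1720.0 CPM.

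The genes lie on 6 chromosomes in GENCODE M21 (build GRCm38). Pdcd1 (chr1:94038305-94052553, minus strand), Ctla4 (chr1:60887000-60915832, plus strand) and Cd244a (chr1:171559193-171609746, plus strand) share chromosome 1. Cd160 is at chr3:96798763-96829351 (minus), Lag3 at chr6:124904361-124911705 (minus), Havcr2 at chr11:46454935-46481255 (plus), Tigit at chr16:43648867-43664146 (minus) and Entpd1 at chr19:40612366-40741602 (plus). Cd160 shares exon bases with the opposite-strand gene Pdzk1, and Cd244a contains the opposite-strand gene Ly9 without exon overlap; the sources do not state the strand setting of the counting, so reads of these neighbours could have been added. The processed pseudogenes Rpl18-ps1, Gm16027 and Gm8783 and the intronic transcript AC166063.1 lie inside Ctla4 or Entpd1 without exon overlap.

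RefSeq promoter windows (250 bases before to 50 after a start, build GRCm38.p6) were at hand for 7 of the 8 genes, 9 windows in all. The windows of Ctla4, Tigit, Pdcd1 and Havcr2 are shown because Ctla4 and Tigit share their highest class, while Pdcd1 and Havcr2 differ in opposite directions between the libraries in CD8 T cells. They are written 5′ to 3′ on the gene's strand, with capitals marking matches, on either strand, to 6 short motifs of factors known in T cells:

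Ctla4 (chr1:60908775-60909074, plus strand): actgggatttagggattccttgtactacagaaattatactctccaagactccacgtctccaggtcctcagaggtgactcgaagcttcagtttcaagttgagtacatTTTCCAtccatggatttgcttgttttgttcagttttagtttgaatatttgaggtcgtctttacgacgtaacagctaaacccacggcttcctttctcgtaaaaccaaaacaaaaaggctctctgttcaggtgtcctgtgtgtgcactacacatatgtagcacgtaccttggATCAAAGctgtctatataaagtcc
Tigit (chr16:43664135-43664434, minus strand): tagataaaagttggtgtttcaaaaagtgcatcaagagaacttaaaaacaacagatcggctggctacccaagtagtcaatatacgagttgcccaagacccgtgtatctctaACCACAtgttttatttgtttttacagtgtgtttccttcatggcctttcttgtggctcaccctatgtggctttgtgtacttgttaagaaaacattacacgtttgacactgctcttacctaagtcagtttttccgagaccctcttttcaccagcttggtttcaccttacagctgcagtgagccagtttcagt
Pdcd1 (chr1:94052504-94052803, minus strand): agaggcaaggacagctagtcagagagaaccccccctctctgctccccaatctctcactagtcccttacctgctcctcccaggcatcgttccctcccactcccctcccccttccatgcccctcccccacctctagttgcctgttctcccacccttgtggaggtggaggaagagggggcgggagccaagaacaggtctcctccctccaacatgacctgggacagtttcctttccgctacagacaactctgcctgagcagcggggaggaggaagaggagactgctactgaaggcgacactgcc
Havcr2 (chr11:46454681-46454980, plus strand): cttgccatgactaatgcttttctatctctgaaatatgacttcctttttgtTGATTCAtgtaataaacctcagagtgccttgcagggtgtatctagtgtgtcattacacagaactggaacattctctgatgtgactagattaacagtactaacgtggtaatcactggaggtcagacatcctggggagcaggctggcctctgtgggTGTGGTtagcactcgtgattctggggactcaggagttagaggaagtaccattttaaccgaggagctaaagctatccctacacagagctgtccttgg

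The motifs searched were TGGAAA (NFAT), TGANTCA (AP-1), AAAGGTCA (NR4A), TGTGGT (RUNX), TCACAC (T-box) and CTTTGAT (TCF). Among 32544 distinct RefSeq windows of 300 bases, 21.5% held the NFAT letters, 7.79% the AP-1, 1.52% the NR4A, 16.7% the RUNX, 14.3% the T-box and 3.73% the TCF letters. The Ctla4 window held an NFAT match (TTTCCA) and a TCF match (ATCAAAG). The Tigit window held a RUNX match (ACCACA), and the Havcr2 window an AP-1 match (TGATTCA) and a RUNX match (TGTGGT). In the Pdcd1 window none of the 6 was found. These are letter matches in a short window and say nothing of binding.

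In CD8 T cells the receptors differed between the libraries in both directions. Havcr2 and Lag3 were higher in Arg, Pdcd1 and Cd244a were lower, and Ctla4 and Cd160 were nearly level. Of the 8 receptors, 4 were at least 1.5-fold apart on the log2(CPM + 5) scale, against 4.89% of the 6129 genes at 20 CPM or more in this class. The median log2 ratio of the 8 was −0.23, and that of all those genes −0.01. The 8 were chosen with earlier results of these data known, so these figures are a description.

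Havcr2, at 322 and 173 CPM, was 1.86-fold higher in Arg (1.76 to 1.96). The share of thinned cells with a Havcr2 UMI differed less, at 30.0% (27.1 to 33.1) in Arg and 26.4% (24.1 to 28.7) in Control. Without thinning these shares were 53.6% and 52.6%. Lag3, at 211 and 136 CPM, was 1.55-fold higher (1.45 to 1.65), with thinned shares of 26.3% and 23.5% whose intervals overlapped.

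Pdcd1, at 385 and 602 CPM, was lower in Arg, at 0.639 of the Control level (0.614 to 0.665). The share of cells with a UMI went the same way, at 45.9% and 64.3% after thinning. Cd244a, at 34.97 and 60.8 CPM, was at 0.575 of the Control level (0.504 to 0.655), with thinned shares of 4.29% and 9.87%. Entpd1 was at 0.714 (187 and 262 CPM) and Tigit at 0.737 (32.7 and 44.4 CPM) of Control, both short of 1.5-fold. The ratio was 0.949 for Ctla4 (0.914 to 0.986) and 1.05 for Cd160 (0.929 to 1.19).

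Different clusters made up most of the CD8 T class in each library, so each of these ratios compares different mixes of clusters. Cluster T1, led by Tox, an exhaustion factor, and Cxcr6, held 57.8% of the class in Control and 5.66% in Arg. Cluster T2, led by the granzyme Gzme, Ifng and Serpine2, held 44.96% of the class in Arg and 6.96% in Control. Cluster T3, led by Gzmk and Lef1, held 35.8% and 11.001%, and the cycling clusters T5 and T14 (Mki67 in 97.3% and 97.9% of their cells) made up the rest. A further cluster, T9, had Cd8a in 89.97% of its cells but was kept out of the class because its leading genes held a marker of another class (Ccr7); it is given by its number.

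Havcr2, Lag3 and Pdcd1 lay further apart between these clusters than between the libraries. Havcr2 was at 495 CPM in Arg and 503 CPM in Control cells of cluster T2. It was at 204 and 182 CPM in T1, and at 21.8 and 12.2 CPM in T3. Within T1 and T2 the Havcr2 ratios were 1.12 (0.888 to 1.40) and 0.984 (0.891 to 1.09), whereas in cycling T5 it was at 281 and 141 CPM, 1.99-fold higher in Arg (1.78 to 2.22). Among T1, T2, T3 and T5, Lag3 was likewise highest in T2 (304 and 267 CPM) and lowest in T3 (36.5 and 27.4 CPM). In T5 it was 1.65-fold higher in Arg (201 and 122 CPM).

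Pdcd1 was at 509 CPM in Arg and 684 CPM in Control cells of T1. It was at 490.5 and 598 CPM in T2, 392 and 607 CPM in T5, and 142 and 155 CPM in T3. It was thus lower in Arg in all 4 clusters, with ratios of 0.744 in T1, 0.821 in T2, 0.646 in T5 and 0.912 in T3, of which the interval for T3 included 1 (0.744 to 1.12). Cluster T9 had Pdcd1 at 341 and 554 CPM (0.615 of Control) and Lag3 at 284 and 171 CPM (1.66-fold higher), and it was nearly free of Cd244a (5.86 and 9.35 CPM).

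Entpd1 was at 232 CPM in Arg and 383 CPM in Control cells of T2, 0.606 of Control (0.537 to 0.684). It was at 233 and 282 CPM in T1 and at 86.1 and 123 CPM in T3. Entpd1 was lower in Arg in T1, T2, T3 and T5, and only the interval for T1 included 1 (0.667 to 1.01). Cd244a was at 50.4 and 78.6 CPM in T1 and 27.9 and 51.8 CPM in T5, lower in Arg in both, and at 48.9 and 41.4 CPM in T2, where the interval of its ratio included 1 (0.840 to 1.70). Ctla4 varied less over T1, T2, T3 and T5, between 367 and 602 CPM in Arg and between 388 and 640.1 CPM in Control.

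Genes past 1.5-fold made up 11.5% of the genes at 20 CPM or more in T1, 5.70% in T2, 9.31% in T3 and 5.65% in T5. Of the receptors at that level, 1 was past it in T1 (Cd244a), 2 in T2 (Tigit and Entpd1), 1 in T3 (Cd160) and 4 in T5 (Havcr2, Lag3, Pdcd1 and Cd244a). When the clusters of the class were given the same weights in both libraries, none of the 8 receptors was past 1.5-fold in CD8 T cells. The share of all genes past it under equal weights is not given here, and T1 of Arg entered with 55 cells. Under those weights the log2 ratio of Havcr2 was 0.20 in place of 0.88, that of Lag3 0.30 in place of 0.61, that of Pdcd1 −0.39 in place of −0.64, that of Cd244a −0.39 in place of −0.72 and that of Entpd1 −0.47 in place of −0.48.

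**Figure D2:**
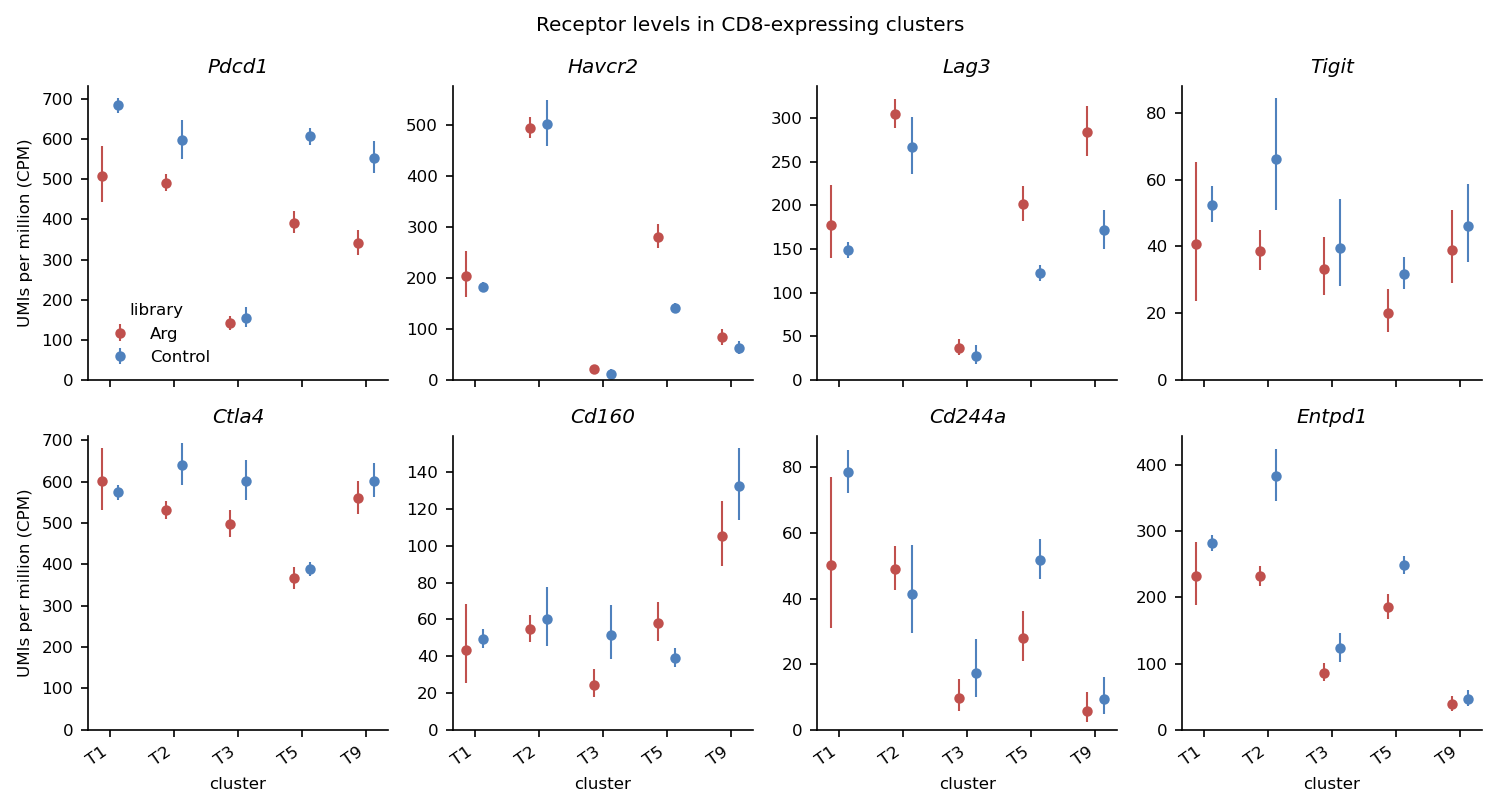
Level of each receptor (vertical axis, CPM, linear from 0, a scale of its own in each panel) in clusters T1, T2, T3 and T5 of the CD8 T class and in cluster T9, for the Arg (red) and Control (blue) libraries, with exact Poisson 95% intervals. Havcr2 is at 495 and 503 CPM in T2 and at 21.8 and 12.2 CPM in T3, so for Havcr2 these clusters lie further apart than the libraries do within each of them.

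In regulatory T cells 2 of the 8 receptors were at least 1.5-fold apart, both lower in Arg, and the background share was 4.72%. Pdcd1, at 92.7 and 238 CPM, was at 0.390 of Control (0.329 to 0.462), with a UMI in 12.9% (9.17 to 17.4) and 33.8% (26.4 to 41.7) of thinned cells. Cd8a (47.5 and 88.8 CPM), Cd8b1 (48.7 and 80.7 CPM) and the NK receptor gene Klre1 (18.8 and 61.7 CPM) moved the same way in this class. Klre1 was also found in 55.2% and 79.4% of CD8 T cells. Ncr1 (30.7 and 19.1 CPM) and the T cell receptor gene Trdc (16.9 and 0.734 CPM) went the other way. The part of RNA from other lymphocytes in the result was not tested. Entpd1, at 118 and 186 CPM, was at 0.633 of Control (0.535 to 0.751), whereas its thinned shares of 18.9% and 21.7% overlapped. Ctla4 (ratio 0.962, 0.915 to 1.01), Tigit (0.999, 0.793 to 1.26) and Havcr2 (1.09, 0.877 to 1.36) were level within counting error. Lag3 was at 125 and 94.7 CPM, a ratio of 1.32 (1.07 to 1.63).

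In CD4 T cells 12.5% of all genes at 20 CPM or more were past 1.5-fold, so the 2 receptors at that level that passed it, Ctla4 and Lag3, stand against a wide background. Ctla4, at 520.5 and 883 CPM, was at 0.589 of Control (0.523 to 0.664). Its thinned shares of 48.9% (42.1 to 55.7) and 55.9% (45.7 to 65.7) overlapped. Lag3, at 41.1 and 23.4 CPM, rested on 56 and 12 UMIs, and its ratio of 1.75 had an interval from 0.929 to 3.60. Pdcd1, at 110.0 and 164 CPM, was at 0.671 of Control (0.510 to 0.887), just short of 1.5-fold on this scale. Cd244a, with 6 UMIs in each library, was under 20 CPM.

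In NK cells 0 of the 8 receptors were past 1.5-fold, where 1.48% of all genes at 20 CPM or more were. Entpd1, at 43.8 and 65.9 CPM, came nearest, at 0.664 of Control (0.580 to 0.762). Cd244a (0.936, 0.865 to 1.01), Tigit (0.963, 0.789 to 1.18) and Ctla4 (1.10, 1.01 to 1.20) were close to level, while Cd160 was at 1.24 (1.07 to 1.43) and Lag3 at 1.35 (1.09 to 1.68).

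NK cells were themselves divided by their receptors. Cluster T7, led by Xcl1 and Ncr1, had Cd160 at 126 CPM in Arg and 117 CPM in Control and Ctla4 at 216 and 162 CPM. Cluster T0, led by Itga2, Gzma and Eomes, genes of circulating NK cells, had Cd160 at 19.0 and 24.6 CPM and Ctla4 at 67.3 and 81.1 CPM. Entpd1 ran the other way, at 69.3 and 109.6 CPM in T0 against 11.9 and 44.9 CPM in T7. Cd244a was between 123 and 168 CPM in Arg and between 115 and 206 CPM in Control over the 4 NK clusters.

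Several receptors were often found in the same CD8 T cell. After thinning to 2000 UMIs, CD8 T cells held UMIs of 2.03 receptors per cell in Arg (933 cells) and 2.36 in Control (1479 cells). Regulatory T cells held 1.65 and 1.92, CD4 T cells 0.796 and 0.990, and NK cells 0.723 and 0.80. Counting intervals of the mean were apart between the libraries in CD8 T cells (1.94 to 2.12 and 2.28 to 2.44) and overlapped in the other 3 classes. Without thinning the means in CD8 T cells were 3.89 and 4.598.

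At least 3 receptors were seen in 35.4% (32.3 to 38.5) of Arg and 43.7% (41.2 to 46.3) of Control CD8 T cells. Without thinning these shares were 69.3% and 87.3%. None of the 8 was seen in 12.2% and 5.41% of thinned cells. The most receptors seen in one thinned cell was 6 in Arg (3 cells) and 7 in Control (1 cell). Cells of cluster T3 held few, with 1.09 and 1.23 receptors, against 2.37 and 2.58 in T1, 2.72 and 2.91 in T2, 2.05 and 2.25 in T5 and 2.03 and 1.98 in T9. With a coarser clustering of the T and NK cells (resolution 0.5 in place of 1), the share with 3 or more was 0.353 percentage points higher in Arg CD8 T cells where the clustering used here gave −8.38 points. In regulatory T cells 17.9% and 24.8% held 3 or more, in CD4 T cells 2.71% and 5.88%, and in NK cells 2.99% and 3.19%.

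**Figure D3:**
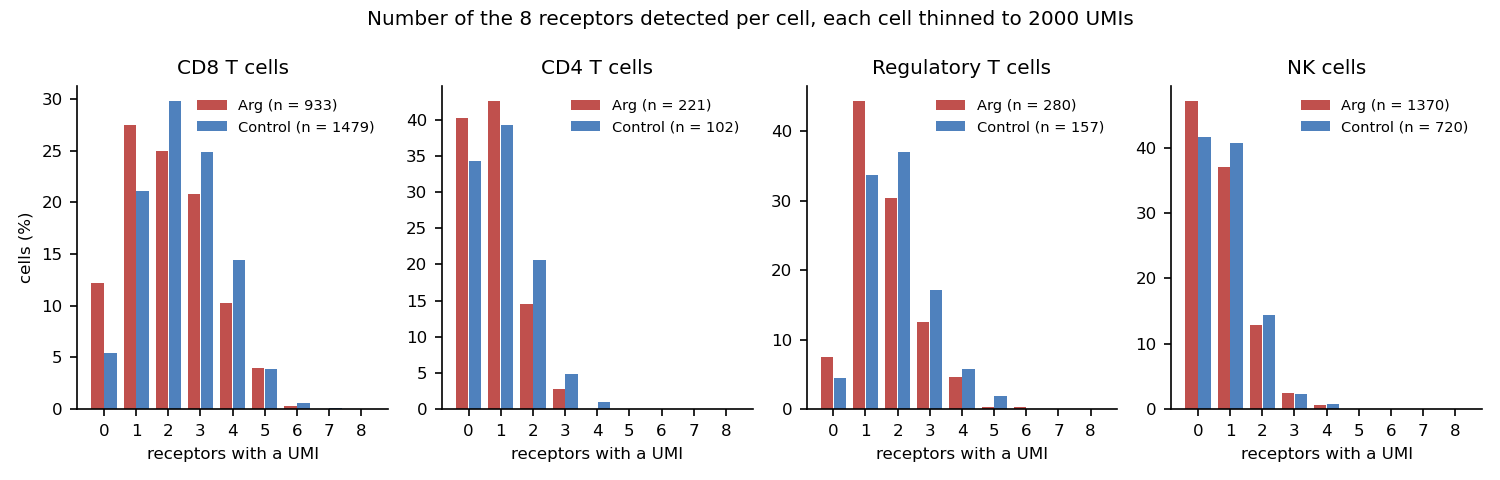
Share of cells (vertical axis, %, from 0) with UMIs of 0 to 8 of the receptors (horizontal axis) in each class after thinning every cell to 2000 UMIs, Arg in red and Control in blue, with the number of cells in each legend. In CD8 T cells 12.2% of Arg and 5.41% of Control cells show none, and 35.4% and 43.7% show 3 or more.

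Pairs of receptors were compared with the share that independent receptors would give, the product of their single shares. In Arg CD8 T cells 21 of the 25 pairs with a product of at least 5 cells lay above it, with a median ratio of 1.09. In Control it was 23 of 28, with a median of 1.05. Havcr2 with Entpd1 was furthest above in both, seen together in 12.1% of Arg cells against a product of 7.62% (1.59-fold) and in 11.9% of Control cells against 9.52% (1.25-fold). Havcr2 with Lag3 was seen in 12.1% against 7.88% in Arg and in 7.51% against 6.20% in Control.

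Inside the clusters the values varied. The median over pairs was 1.0 in T2 of Arg, 1.02 in T2 of Control, 1.02 in T1 of Control, 1.06 and 1.02 in T5 of Arg and Control, and 1.21 and 0.915 in T3. Havcr2 with Lag3 was at 1.0 and 0.923 times its product in T2, at 1.01 in T1 of Control, and at 1.30 (12 cells) and 1.28 (25 cells) in T5. Havcr2 with Entpd1 was at 1.25 and 1.01 in T2, at 1.23 in T1 of Control, and at 1.42 and 1.15 in T5. For the class as a whole, the product of the 8 shares gave 32.1% of Arg and 43.6% of Control cells with 3 or more receptors, close to the 35.4% and 43.7% seen. The cells without any receptor were more frequent than the product, at 12.2% against 7.43% in Arg and 5.41% against 4.02% in Control. In NK cells the median over pairs was 1.11 in Arg, where 9 of 14 pairs were above their product, and 0.978 in Control, where 5 of 10 were. Furthest above were Tigit with Entpd1 in Arg (1.70) and Tigit with Cd244a in Control (1.415). Furthest below were Tigit with Cd160 in Arg (0.348) and Tigit with Ctla4 in Control (0.767). Ctla4 and Cd160 were seen together 1.66 times as often as their product in Arg (29 cells) and 1.40 times in Control (14 cells). Cd160 was highest in the NK cluster T7 in both libraries. Ctla4 was highest there in Arg, whereas in Control it was at 184 CPM in cluster T4 and 162 CPM in T7. Their pairing within the NK clusters was not tested.

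**Figure D4:**
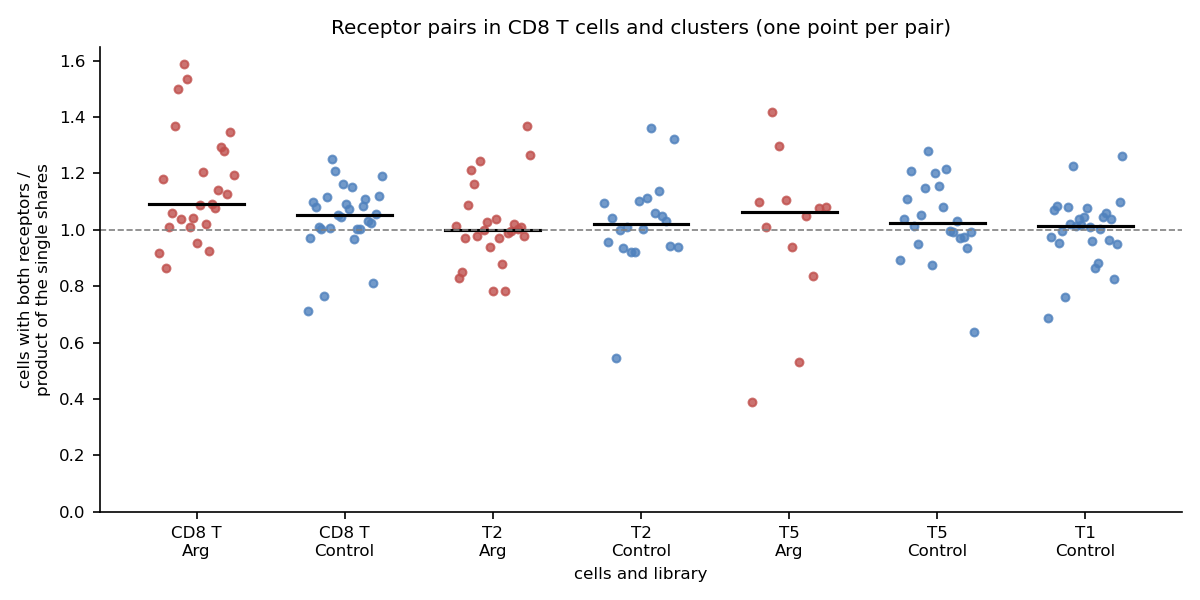
Share of cells with both receptors divided by the product of the single shares (vertical axis, linear from 0; dashed line at 1), one point per pair with a product of at least 5 cells, in the CD8 T class and clusters T2 and T5 of each library (red Arg, blue Control) and cluster T1 of Control; black bars are medians. The median is 1.09 for Arg and 1.05 for Control CD8 T cells and 1.0 for Arg cells of T2.

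The series' title names Cd200, and CD8 T cells with a Cd200 UMI held more receptors than those without. In Arg, 165 thinned cells with Cd200 had 2.61 receptors and 768 without had 1.90. In Control, 151 cells with it had 2.67 and 1328 without had 2.32. In Arg, Havcr2 was at 469.7 CPM with and 229.8 CPM without Cd200, Lag3 at 345 and 164 CPM, and Pdcd1 at 561 and 333 CPM, whereas Ctla4 was at 588 and 525 CPM. In Control, Pdcd1 was level between these cells (596 and 602 CPM), Havcr2 was at 311 and 174 CPM, and Lag3 at 199 and 131 CPM. Inside cluster T2 of Arg, which held 130 of the 165 cells, receptors per cell were 2.72 with and 2.73 without Cd200, and in T2 of Control they were 2.85 and 2.94. In T1 of Control, with 81 Cd200 cells, they were 2.86 with and 2.55 without. In T5 they were 2.24 and 1.98 in Arg and 2.12 and 2.27 in Control. Within these clusters cells with Cd200 had more receptors in some cases and fewer in others.

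CD8 T cells with a UMI of Tox also held more receptors, 2.23 against 1.89 in Arg and 2.48 against 2.03 in Control. Pdcd1 was at 453 CPM with and 320.0 CPM without Tox in Arg, and at 655 and 453 CPM in Control. Tox-bearing cells were 372 of 933 in Arg and 1088 of 1479 in Control. Inside T1, receptors per cell with and without Tox were 2.29 and 2.45 in Arg (24 and 22 cells) and 2.62 and 2.41 in Control. In T2 they were 2.82 and 2.65, and 2.94 and 2.86. In T3 they were 1.28 and 0.995, and 1.31 and 1.19. In T5 they were 2.38 and 1.80, and 2.30 and 2.14. Pdcd1 in Control was at 714 and 659 CPM in T1, 594 and 361 in T2, 220 and 115 in T3, and 636 and 568 in T5.

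Genes around the receptors were counted from 5 lists. The lists were chosen with earlier results of these data known, so counts set beside the share of all genes are a description. In CD8 T cells, 15 of 17 factors known to act on receptor genes were at 20 CPM or more, and 6 of them were past 1.5-fold, beside 4.89% of all genes. Lower in Arg were Tox (372 and 994 CPM), Ikzf2, which encodes the factor Helios (249 and 629 CPM), and the activation-induced nuclear receptors Nr4a2 (676 and 1093 CPM) and Nr4a3 (214 and 364 CPM). Higher were Tcf7, a factor of memory-like T cells (32.3 and 10.7 CPM), and Bach2, a repressor that holds back effector fate (284 and 167 CPM). The median log2 ratio of the list was −0.14, beside −0.01 for all genes. Since T1 held most of this class in Control and T2 and T3 most of it in Arg, the factors were also read by cluster. Tox was lower in Arg in each of T1 (653 CPM from 55 cells and 1192 CPM), T2 (399 and 821 CPM), T3 (273 and 360.4 CPM) and T5 (364 and 933 CPM). Bach2 was higher in each, by 1.49-fold in T2 to 2.08-fold in T1. Tcf7 was at 130.3 and 75.1 CPM in T3 and at or under 8.58 CPM in T1, T2 and T5. Of 9 measured signalling partners, such as the phosphatase genes Ptpn6 and Ptpn11, and of 7 costimulatory or competing receptors, such as Cd28 and Icos, 0 were past 1.5-fold. Among 6 other measured inhibitory receptors, Cd200r1, the CD200 receptor, was lower (17.1 and 31.0 CPM).

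Regulatory T cells had 3 of 9 measured other inhibitory receptors past 1.5-fold, beside 4.72% of all genes there. Klrg1, a receptor of effector regulatory T cells, was at 185 and 99.8 CPM, higher in Arg. Klrc1, which encodes NKG2A, was at 69.7 and 119 CPM and Cd101 at 15.7 and 43.3 CPM, both lower. Nr4a2 was lower there as well, at 151 and 360.4 CPM. It was the 1 of 13 measured factors past 1.5-fold, beside the same 4.72% of all genes. In CD4 T cells 2 of 14 factors were, a share near the 12.5% of all genes there, namely Nr4a2 (136 and 255 CPM) and Ikzf2 (177 and 345 CPM), both lower in Arg. In NK cells 0 of 14 factors passed, and of 6 other inhibitory receptors Klrg1 did (38.0 and 59.6 CPM), beside 1.48% of all genes.

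The ligands of the receptors, also a list chosen with earlier results known, were read in the myeloid cells of the same tumours. In macrophages 6 of 11 measured ligand genes were past 1.5-fold, all higher in Arg, beside 6.04% of all genes in that class; in monocytes it was 5 of 13, again all higher, beside 3.50%. Pdcd1lg2, which encodes the PD-1 ligand PD-L2, was at 103 CPM in Arg and 10.3 CPM in Control macrophages and at 142 and 26.0 CPM in monocytes. Cd274 (PD-L1) was at 487 and 190.2 CPM in macrophages and at 835 and 524 CPM in monocytes. Class II MHC, a ligand of LAG-3, was higher too, with H2-Aa at 3984 and 1680 CPM in macrophages. Cluster G0 (2022 Arg and 961 Control cells) was nearest to macrophages by its markers but was left unnamed and is outside this class. Its 13 measured ligand genes had a median log2 ratio of 0.17, beside 0.11 for all genes. In macrophages these medians were 0.96 and 0.02. In G0, 6 ligand genes were past 1.5-fold, all higher in Arg, and the share of all genes was not taken.

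The clusters also made up different shares of the macrophages and monocytes in each library, although the largest cluster of each class was the same in both. The macrophage cluster G12 held 526 Arg and 200 Control cells and G1 held 612 and 2065, while the monocyte cluster G2 held 1893 and 542. Pdcd1lg2 was higher in Arg within each of the 8 clusters of these classes, from 3.91-fold (G12) to 8.001-fold (G6) in macrophages and from 1.62-fold (G13) to 6.63-fold (G2) in monocytes. Cd274 was higher in each by a smaller factor, 1.53-fold to 2.10-fold in the macrophage clusters and 1.32-fold to 1.97-fold in the monocyte clusters. H2-Aa differed in direction: it was 5.61-fold higher in G6 and 1.65-fold higher in G1, but in G12 it was at 6596 and 7535 CPM, 0.875 of Control (0.859 to 0.892). The ligands of the other receptors differed less: in macrophages Cd86 (CTLA-4) was at 400.5 and 319 CPM, Cd80 at 57.1 and 45.6 CPM, Lgals9 (TIM-3) at 95.5 and 81.3 CPM, Pvr (TIGIT) at 17.4 and 15.5 CPM, and Cd48 (2B4) at 115 and 134 CPM.

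Ligand genes past 1.5-fold were also counted in the lymphocytes, 4 of 12 measured in CD8 T cells, 6 of 11 in CD4 T, 6 of 12 in regulatory T and 2 of 9 in NK cells, beside 4.89%, 12.5%, 4.72% and 1.48% of all genes. All 4 in CD8 T and both in NK cells were higher in Arg, whereas in CD4 T cells 5 were higher and 1 lower, and in regulatory T cells 4 were higher and 2 lower. Class II genes were among them in every class (H2-Aa at 126 and 56.3 CPM in CD8 T cells), and the part of macrophage RNA in this was not tested. C1q transcripts, made by macrophages, were found in 63.8% and 76.1% of CD8 T cells. The 8 macrophage markers summed to 292 and 330 CPM in CD8 T cells with none at 0, and the 3 C1q genes were at 1.62% and 1.78% of their macrophage level. If all of that had been carried over from macrophages, it would bring 1.42% and 0.738% of the Entpd1 and 0.219% and 0.310% of the Havcr2 seen in CD8 T cells. In NK cells the same estimate gives 6.73% and 3.203% for Entpd1 and 6.36% and 4.08% for Havcr2. It covers macrophage RNA alone. RNA carried from richer sources, such as monocytes (Havcr2 at 167 and 143 CPM) or neutrophils (Entpd1 at 1752 and 1385 CPM), was not estimated. Among CD8 T cells with no C1q UMI, 2 of the 8 receptors were past 1.5-fold. The share of all genes past it in those cells is not given here.

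Outside lymphocytes, Entpd1, Havcr2 and Cd244a were read first. Entpd1 was at 1752 CPM in Arg and 1385 CPM in Control neutrophils, above every T and NK class, with a UMI in 88.5% and 81.2% of thinned cells. Monocytes had 279.5 and 286 CPM and macrophages 163 and 109 CPM of it, and cDC1, the cross-presenting dendritic cells, had 129.7 and 162 CPM. Havcr2 was at 205 and 152 CPM in cDC1, 167 and 143 CPM in monocytes, 105 and 86.6 CPM in cDC2 and 43.3 and 30.2 CPM in macrophages. Cd244a was at 67.6 and 78.3 CPM in neutrophils and at 23.1 and 30.6 CPM in monocytes; the monocyte cluster G13 had 124 and 120.0 CPM.

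Lag3 was at 66.8 and 54.7 CPM in plasmacytoid dendritic cells and at or under 14.2 CPM in the other myeloid classes. Ctla4 was at 262 and 168 CPM in B lineage cells, from 62 and 37 cells, and at 15.04 and 15.9 CPM in macrophages. Dendritic cells also had Ctla4 RNA, at 49.9 and 68.6 CPM in cDC1, 44.0 and 46.4 CPM in cDC2 and 39.6 and 59.5 CPM in plasmacytoid cells. Pdcd1 was at 19.8 and 45.3 CPM in cDC1 and at 4.41 and 39.7 CPM in cDC2, where 16 of 572 and 24 of 189 cells held a UMI. T cell transcripts were present in the same cells, Cd3e in 12.5% and Cd8a in 17.5% of cDC1 cells over both libraries and Cd3e in 7.88% of cDC2 cells, and the part of T cell RNA or doublets in these receptor levels was not tested. Tigit and Cd160 stayed at or under 3.62 CPM in monocytes, macrophages, neutrophils and dendritic cells.

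Cluster G4, an unnamed cluster led by Tm4sf1, Rhox5 and Lgals7 with no lymphocyte gene among its leading genes, was read as a class that should lack these receptors. In its thinned cells, from a median of 38108 and 34288 UMIs, Pdcd1 was seen in 0.676% and 0.285%, Tigit in 0% and 0.143% and Havcr2 in 1.80% and 0.428%. The share for Ctla4 was 4.28% and 3.99%. The NK share was 1.75% and 2.36% for Havcr2 and 1.46% and 1.67% for Pdcd1. Since the NK cells were much shallower, at a median of 6150 and 6691 UMIs, no order between them and G4 is read from these shares. In CD4 T cells Cd160 was in 0% of thinned cells (upper bounds 1.66% and 3.55%) and Cd244a in 0.452% and 0%.

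**Figure D5:**
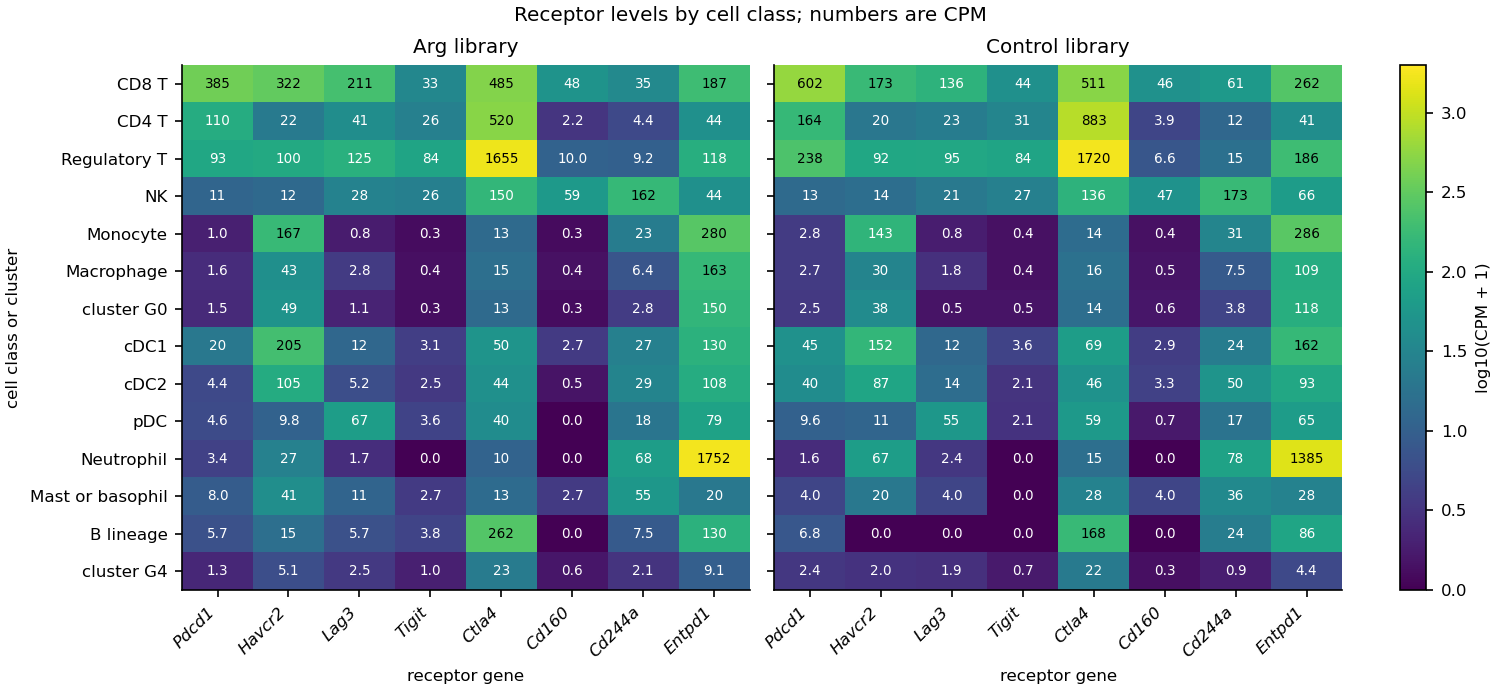
Levels of the 8 receptors (columns) in T, NK, myeloid, B lineage and unnamed clusters (rows), by library; numbers are CPM and colour is log10(CPM + 1). Columns are to be read downwards, since levels of different genes are not comparable; Entpd1 peaks in neutrophils at 1752 and 1385 CPM, and Tigit and Cd160 are near 0 outside T and NK cells.

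Across 12 classes and unnamed clusters with at least 100 cells in both libraries, the genes whose pattern was most like each receptor were given by Pearson correlation of log2 levels averaged over the libraries, as a description of points that share 2 libraries. For Pdcd1 these were the T cell genes Cd3e, Trac and Cd3g (0.983, 0.980 and 0.979). For Ctla4 they were Zbtb1, Tnfrsf18 and Icos (0.984, 0.984 and 0.983), and for Cd160 Klre1, Myo16 and Prf1 (0.984, 0.977 and 0.976). Tigit had Igflr1 (0.993), I730030J21Rik and Zbtb1 as its nearest, and Lag3 had Ociad2 (0.961), E130308A19Rik and Adamts6. For Havcr2 (Tap1, 0.850; Apaf1; Ubash3b), Entpd1 (Mtmr6, 0.892; Dusp16; Ripk1) and Cd244a (Tmed5, 0.918; Sft2d2; Rhoq) the nearest genes were less alike. Among the receptors themselves Ctla4 and Tigit were most alike (0.973), followed by Ctla4 and Pdcd1 (0.911), whereas Entpd1 was nearest to Havcr2 (0.604).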

How the data were processed

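The authors deposited raw UMI counts per gene and cell barcode for each library, made with Cell Ranger 7.0.1 per the file headers. Version 2.2.2 and the build GRCm38 are given by the submitters' processing notes instead. The sources do not state how intronic reads were treated. A cell needed 500 UMIs, 200 genes and a mitochondrial share of at most 10%, which removed 665 Arg and 856 Control barcodes. Doublets called by Scrublet in scanpy 1.11.5 (884 and 687 cells, 6.37% and 5.09%) were then removed.

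Cells were clustered on 2000 variable genes, without the 8 receptors, with 30 principal components, 20 neighbours and Leiden resolution 1 (leidenalg 0.10.2), and the T and NK cells were clustered again. Clusters were named from 18 marker sets, and a cluster with too few detected markers, or whose leading genes held mostly another class's markers, was left unnamed. Counts were summed per class and library and divided by the class total. Ratios were taken on log2(CPM + 5) among genes with at least 20 CPM on average, and a gene past 1.5-fold was counted as apart. Shares of cells and receptors per cell were computed after thinning each cell to 2000 UMIs, which left out 39 Arg and 30 Control CD8 T cells, 6 and 3 CD4 T cells, 3 and 7 regulatory T cells and 44 and 21 NK cells. The floor of a count of 0 was 3 counts.

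In data simulated for the CD8 T comparison, 99.5% of 200 genes given 2-fold changes among 6158 were recovered. Those data held Poisson counting error alone, without differences between cells, mice or libraries, so they give no measure of such differences. All 8 receptors were described in each of the 4 classes. Factors and other inhibitory receptors past 1.5-fold in the T and NK classes were named with values. Of the other list genes past it, only some ligands were named. Also named were a main ligand in myeloid cells of each receptor except Cd160 and Entpd1, and the 3 genes most like each receptor. The members and lists were chosen with earlier results of these data known. A total of 18 alternatives were run, with edgeR 4.0.16 (R 4.3.3) for TMM scaling. Python 3.11.15, numpy 2.4.6, scipy 1.17.1 and pandas 2.3.3 were used.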

Additional observations from a re-analysis of the deposited data

How the results depend on the processing

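Under the alternatives, 64 values of receptors per cell, of the share of CD8 T cells with 3 or more and of the count of receptors apart stayed close to those reported, and the exceptions follow. With the T and NK cells clustered at resolution 0.5, the difference in receptors per CD8 T cell (Arg minus Control) was −0.0166 in place of −0.333, and the difference in the share with 3 or more was 0.353 percentage points in place of −8.38, the opposite sign. No CD4 T class formed at that resolution. The count of receptors at least 1.5-fold apart in CD8 T cells, 4 as reported, was 2 without cells holding C1q, 2 with a pseudocount of 20 CPM, 0 with a common mix of clusters and 0 at a 2-fold limit, which 1.14% of all genes passed. Of these alternatives, the share of all genes is given here for the 2-fold limit alone, and the cause of the shifts was not tested. In CD8 T cells the log2 ratios kept their sign under all 13 alternatives for Havcr2 (0.20 to 0.98), Lag3 (0.30 to 0.80), Pdcd1 (−0.71 to −0.39) and Cd244a (−0.78 to −0.39), and in regulatory T cells under all 10 for Pdcd1 (−1.41 to −0.91) and Entpd1 (−1.17 to −0.58). Cd244a in CD4 T cells, with 6 UMIs per library, went from −0.83 to 1.21 under a gate on single cells. Other ratios changed sign too, such as Tigit in regulatory T cells, which kept it in 5 of 10 alternatives (−0.53 to 0.04). Havcr2 in NK cells kept its sign in 7 of 11 (−0.83 to 0.20). Havcr2 in regulatory T cells kept its sign but ranged from 0.03 to 0.94. Adding cluster T9 to the CD8 T class and leaving out the cycling clusters were chosen after seeing the data. No paired analysis was possible because each diet has 1 library, and for the same reason no library could be left out.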
